A study of Picea abies with 40 samples.

Results

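The comparison of stele 1 with ground tissue sets the inner against the outer tissue that was captured by laser microdissection from roots of Norway spruce (Picea abies) seedlings. It rests on 8 of the 40 libraries of the study, 4 of stele 1 and 4 of ground tissue, which were chosen by their group labels and not by a measured value. The seedlings grew on plates until about 2 days after germination. The RNAqueous-Micro kit served to extract the RNA of captured tissue, and each library was sequenced and counted per gene. The other groups used here were captured from the same kind of seedling or cut from whole roots. They were stele 2, stele 3 and the QC area, each with 4 captured libraries, and zones 1 to 4, which are successive segments of the root counted from its tip, each with 5 libraries. Per the series description the steles came from the elongation and the differentiation zones, but the sources used here do not say which number belongs to which zone, nor how far from the tip the ground tissue was captured. No genotype, strain or treatment separates the groups. The labels name neither the seedlings nor any pool behind a replicate, and regions may share seedlings, so p-values measure the spread between these libraries only and may be too small.

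The stele is the central cylinder of a root. It holds the xylem, which carries water, the phloem, which carries sugars, and the cells around and between them that divide to form both. The ground tissue surrounds the stele and consists of the cortex and, at its inner edge, the endodermis, which controls what passes from the soil solution into the stele. Both tissues arise from dividing cells near the root tip and take on their mature features as they are left farther behind it.

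The tables list 70736 gene IDs of the form MA_273360g0010 and pair none of them with a gene name or product. The IDs are therefore given as they stand, without a role, and neither tissue label could be checked against marker genes. Stele 1 libraries held 4.94 to 8.66 M counts and ground tissue libraries 8.63 to 9.68 M. The lowest total was that of stele 1 replicate 1, which also had the fewest genes with a count (28845). A count was present for 31736 ± 1970 genes per stele 1 library and for 32845 ± 665 genes per ground tissue library (SD, n = 4 each), and the difference of -1110 did not pass an exact two-sided permutation test (p = 0.371, adjusted p = 0.371 over 2 such measures; the smallest p this design allows is 0.0286). Without stele 1 replicate 1 the difference was -145. The 100 most counted genes took 26.5% ± 1.3 of the counts in stele 1 and 27.5% ± 1.24 in ground tissue (SD, n = 4 each; exact two-sided permutation test, p = 0.371, adjusted p = 0.371).

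The stele 1 libraries were less alike than those of ground tissue, and replicate 3 of stele 1 stood nearest to ground tissue. Across 27239 genes, which are not independent replicates, its log2(CPM + 1) values correlated with the 4 ground tissue libraries at r = 0.93 to 0.95 and with the other stele 1 libraries at 0.87 to 0.95. CPM are counts scaled to the library total after TMM adjustment (a trimmed mean of gene ratios between libraries), and they are not corrected for gene length. Replicate 1 of stele 1 lay at the other end, with r = 0.82 to 0.83 against ground tissue, while ground tissue libraries correlated among themselves at 0.96 to 0.98. The median SD of a gene on this scale was 0.41 among stele 1 libraries and 0.29 among ground tissue libraries. The numbers of genes called and several follow-up shares are also given without replicate 1 or replicate 3 of stele 1. Most other values, among them shares of counts and size classes, are given with all libraries only.

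More genes were higher in stele 1 than lower, and the balance depended on which groups were fitted. Of 27239 genes tested with edgeR's quasi-likelihood test at a Benjamini-Hochberg adjusted p of 0.05, 1302 were higher in stele 1 than in ground tissue, which is 4.78% of all tested genes, and 340 were lower, which is 1.25%, together 6.03%. The median log2 fold change of the higher genes was 3.00 and that of the lower genes -2.94, against 0.03 over all tested genes. With genes that had no count in one of the groups set to the bound that 3 counts over the group allow, the medians were 2.95 and -2.94. In bulk tissue, fewer cells of a type and less RNA per cell cannot be told apart. A fit of these 2 groups alone gave 840 higher and 485 lower. In that fit 991 of the 1302 higher and 310 of the 340 lower genes could be tested. The others passed the filter only through other captured groups. The number of calls also depended on single libraries. Without stele 1 replicate 1, 808 genes were higher and 214 lower. Without stele 1 replicate 2, 216 were lower, and without ground tissue replicate 1, 211 were lower. Without stele 1 replicate 3, the library nearest to ground tissue, 1720 were higher and 411 lower, and 1272 and 290 of these were among the genes called with all libraries.

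**Figure D1:**
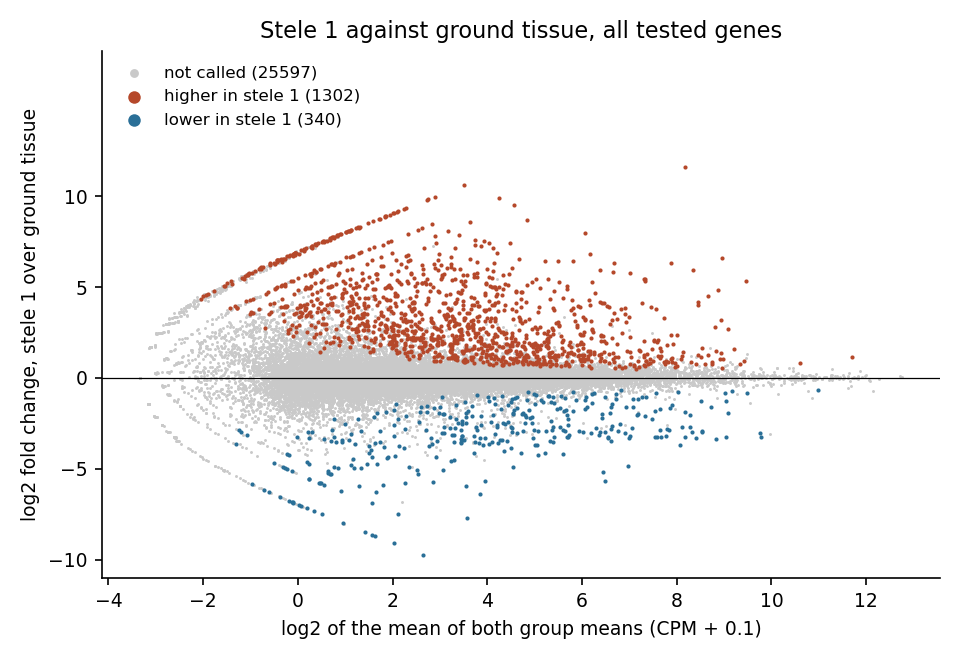
Each point is 1 of the tested genes; the horizontal axis is the log2 of the mean of both group means in CPM with 0.1 added, and the vertical axis is the fitted log2 fold change of stele 1 over ground tissue. The 1302 red genes are called higher and the 340 blue genes lower in stele 1; the curved bands of points on the left are genes with few or no counts in one of the groups, whose fitted values are not bounds.

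The genes higher in stele 1 were mostly low in ground tissue, and the genes lower in stele 1 were well expressed in it. The higher genes had a median of 14.8 CPM in stele 1 and 1.66 CPM in ground tissue (medians of group means), and the lower genes 4.19 CPM in stele 1 and 28.1 CPM in ground tissue. No count was found in any ground tissue library for 114 of the higher genes, and none in any stele 1 library for 19 of the lower genes. A mean of at least 100 CPM was reached by 169 of the higher genes in stele 1 and by 52 of them in ground tissue, and by 18 of the lower genes in stele 1 and 78 of them in ground tissue. Of the higher genes, 106 differed by under 2-fold, 558 by 2- to 8-fold, 404 by 8- to 32-fold and 234 by over 32-fold, with genes at 0 in ground tissue placed at their bound. Of the lower genes, 17, 163, 125 and 35 fell into the same classes.

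Values of the stele 1 and ground tissue libraries did not overlap for 955 of the 1302 higher genes (73.3%) and for 328 of the 340 lower genes (96.5%). Over all tested genes every stele 1 library lay above every ground tissue library for 6.95% and below it for 4.97%. The calls used these same libraries, so the shares only describe the lists. Stele 1 replicate 3 made most of the overlap: it lay above all ground tissue libraries for 75.1% of the higher genes, against 99.3%, 99.5% and 98.5% in stele 1 replicates 1, 2 and 4. For the lower genes the 4 stele 1 libraries lay below all ground tissue libraries in 98.2% to 99.7% of cases. In the order of replicates 1 to 4, the median of the higher genes was 23.3, 14.7, 6.46 and 11.3 CPM in stele 1 libraries, against 1.79, 1.48, 1.5 and 1.52 CPM in ground tissue libraries. The median of the lower genes was 2.14, 3.42, 6.25 and 3.96 CPM in stele 1 libraries, against 39.1, 25.5, 24.8 and 22.5 CPM in ground tissue libraries. Replicate 1 of stele 1 was thus farthest from ground tissue and replicate 3 nearest in both lists, and no library of either group reached the range of the other. Replicate 1 also had the lowest total of these libraries (4.94 M), and whether its place goes with depth was not tested.

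**Figure D2:**
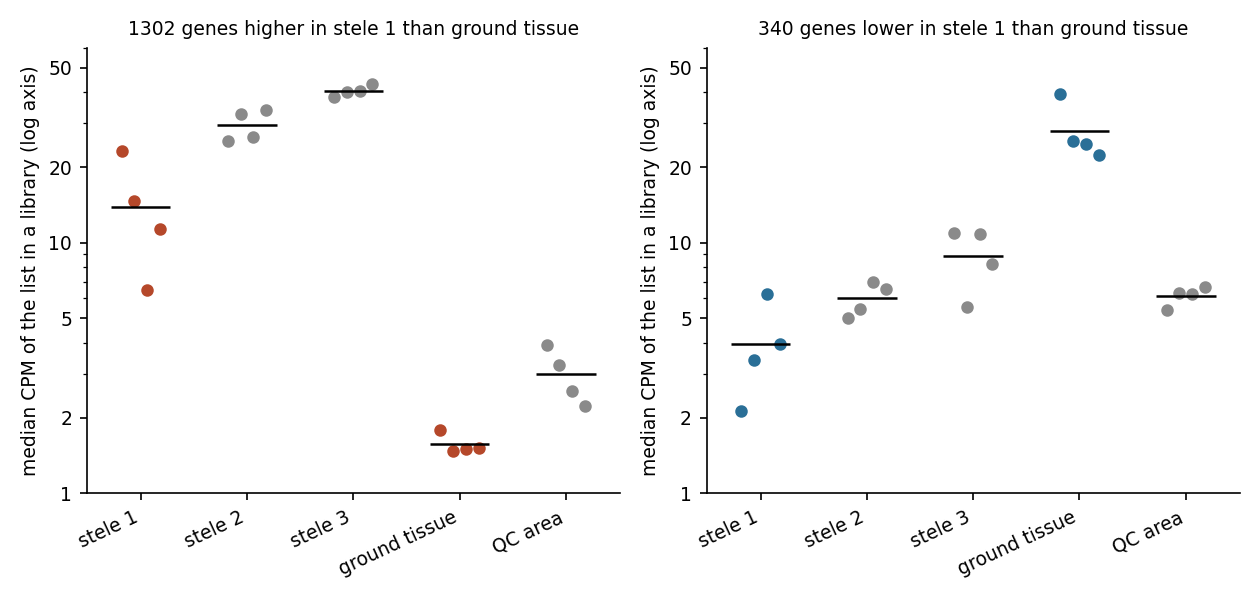
Points are libraries, placed by the median CPM of the genes called higher (left) or lower (right) in stele 1 on a log axis, and bars are means of the libraries. Coloured points are libraries of the groups compared to call the lists. Grey points are libraries of groups that took part only in the filter and the fit. The higher genes reach 25.5 to 43.2 CPM in steles 2 and 3 and 2.24 to 3.91 CPM in the QC area, and the lower genes stay at 5.01 to 10.9 CPM in all 3 of these groups.

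As a share of all counts, the 1302 higher genes took 7.9% ± 3.13 in stele 1 and 2.46% ± 0.186 in ground tissue (SD, n = 4 each). The 340 lower genes took 1.01% ± 0.307 in stele 1 and 4% ± 0.665 in ground tissue (SD, n = 4 each). The other captured groups were not compared to call the lists but took part in the filter and the fit. There the higher genes took 16.8% ± 2.05 in stele 2, 23.7% ± 1.86 in stele 3 and 3.38% ± 0.709 in the QC area (SD, n = 4 each). The lower genes took 1.39% ± 0.0914, 1.78% ± 0.309 and 1.28% ± 0.081 in the same groups. The share of the higher genes was thus larger in every stele 2 and stele 3 library (14.5% to 26%) than in any stele 1 library (4.71% to 12.2%).

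By lane, the libraries were unevenly spread. Stele 1 replicates 1 and 2 and ground tissue replicate 2 were read in lane 7, and stele 1 replicates 3 and 4 and ground tissue replicates 1, 3 and 4 in lane 8; the labels give a lane only as a sequencing lane. Within lane 7, where 2 stele 1 libraries stand against 1 ground tissue library, 599 genes were higher and 241 lower in stele 1. The spread there comes from the 2 stele 1 libraries, and the lone ground tissue library is assumed to vary like them. All 1273 higher and all 326 lower genes of the full comparison that could be tested there kept their sign, with medians of 3.52 and -3.47. Within lane 8, 280 were higher and 170 lower. All 1005 and 331 genes that could be tested there kept their sign, with medians of 1.81 and -2.50. The lane libraries are part of those that chose the lists, so the signs describe the lists. The lane 8 comparison holds stele 1 replicate 3, and whether the smaller median there goes with the lane or with that library was not tested. With lane as a term, 935 genes were higher and 272 lower.

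The gene with the largest difference in mean level was MA_273360g0010. It had 7940, 3860, 2590 and 4010 CPM in stele 1, against 2540, 2210, 1760 and 1840 CPM in ground tissue. The groups did not overlap, but the lowest stele 1 library, replicate 3, lay only just above the highest ground tissue library. The log2 fold change was 1.14 ± 0.30 (SE; adjusted p = 0.0245). It did not pass the threshold without stele 1 replicate 1 (log2 fold change 0.74, adjusted p = 0.159), without ground tissue replicate 2, 3 or 4 (adjusted p = 0.0597, 0.0847 and 0.0816), with lane as a term (adjusted p = 0.0708) or when only these 2 groups were fitted (adjusted p = 0.0591). Elsewhere its mean was 9740 CPM in stele 2, 13500 CPM in stele 3 and 1950 CPM in the QC area, so the QC area stood at the ground tissue mean of 2090 CPM.

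MA_36686g0010 had the second largest difference in mean level among the genes higher in stele 1. It had 2530, 1290, 780 and 935 CPM in stele 1, against 19.6, 48.1, 32.1 and 39.9 CPM in ground tissue. Every stele 1 library lay far above the ground tissue range, and the log2 fold change was 5.31 ± 0.60 (SE; adjusted p = 1.94e-05). Its mean was 1580 ± 939 CPM in stele 2, 1990 ± 959 CPM in stele 3 and 335 ± 163 CPM in the QC area (SD, n = 4 each), and it was higher than in the QC area in both later steles (log2 fold changes 2.23 ± 0.52 and 2.57 ± 0.53, SE; adjusted p = 0.00187 and 0.000386). In the 20 zone libraries, which were normalized separately and come from whole segments, it lay between 15.5 and 45.8 CPM.

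Of the genes lower in stele 1, MA_79460g0010 and MA_10435304g0010 differed most in mean level, and their values moved together. MA_79460g0010 had 51.5, 110, 342 and 165 CPM in stele 1, against 2320, 1080, 1600 and 1360 CPM in ground tissue (log2 fold change -3.25 ± 0.59, SE; adjusted p = 0.00168). MA_10435304g0010 had 44.6, 142, 361 and 201 CPM in stele 1, against 2440, 1190, 1360 and 1150 CPM in ground tissue (log2 fold change -3.04 ± 0.63, SE; adjusted p = 0.00487). For both, replicate 3 was the highest stele 1 library and replicate 1 the lowest, and the groups did not overlap. The other captured groups were as low as stele 1 or somewhat above it. MA_79460g0010 averaged 167 CPM in stele 2, 236 CPM in stele 3 and 357 CPM in the QC area, and MA_10435304g0010 averaged 135, 250 and 297 CPM. Neither passed the test in stele 2 or stele 3 against the QC area. Along the zones neither fell steadily. The mean was highest in zone 2 (1760 CPM for MA_79460g0010 and 1510 CPM for MA_10435304g0010) and lowest in zone 3 (661 and 616 CPM). Both were lower in zone 4 than in zone 1, by a log2 fold change of -0.79 ± 0.13 (SE; adjusted p = 1.14e-05) for MA_79460g0010 and -0.59 ± 0.13 (SE; adjusted p = 0.000216) for MA_10435304g0010.

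**Figure D3:**
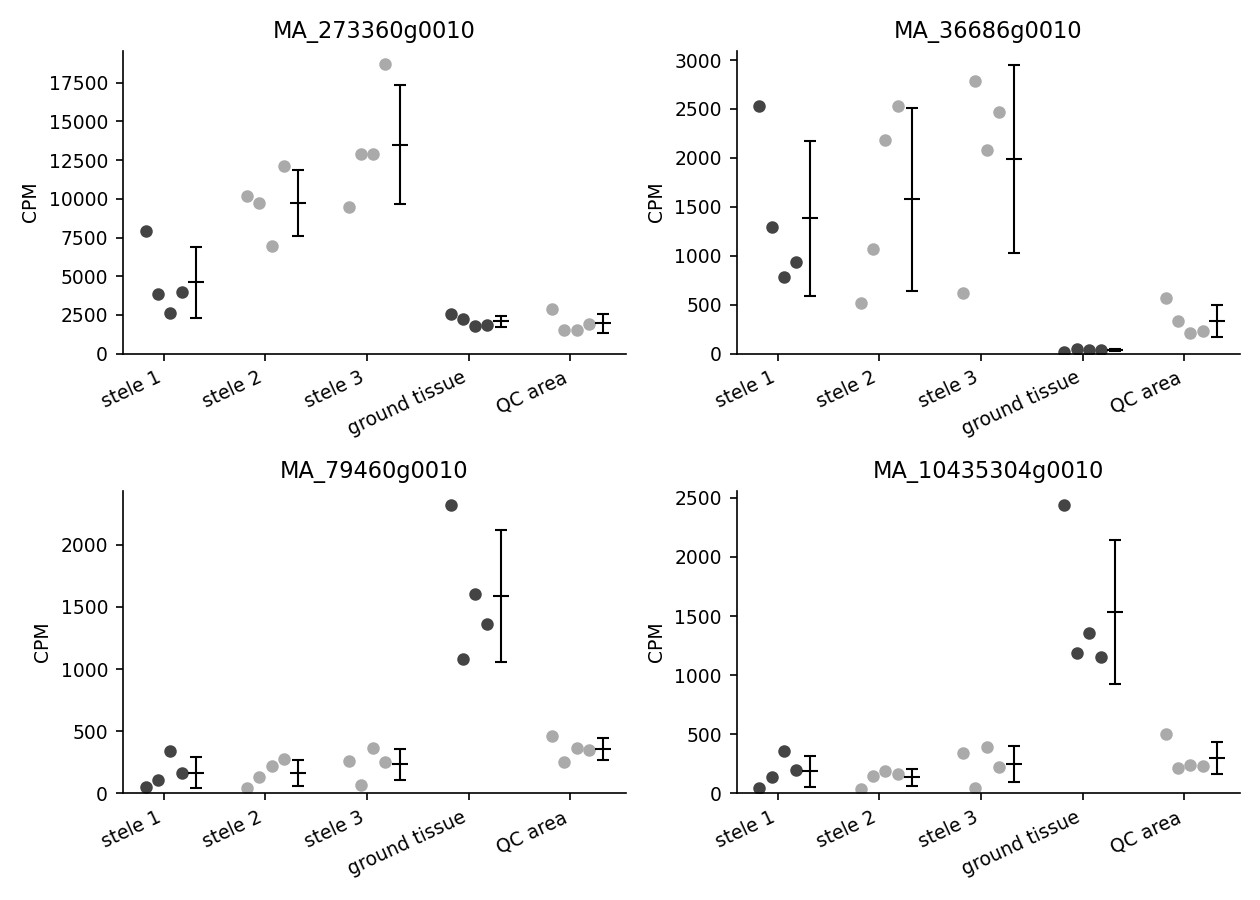
CPM of the 4 genes with the largest differences in mean level in each captured library (points) with the mean and SD of each group (bars, n = 4). Stele 1 and ground tissue, whose comparison named the genes, are dark, and the other captured groups are grey. The first 2 genes are high in the 3 steles, and the other 2 are high in ground tissue with 1080 to 2440 CPM and at most 499 CPM elsewhere.

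Whether the genes that differ between inner and outer tissue also differ elsewhere was followed in comparisons that use no stele 1 or ground tissue library. The filter and the spread, however, came from all captured groups. In a fit of stele 1 and ground tissue alone, 991 of the 1302 higher and 310 of the 340 lower genes could be tested. The others passed the filter only through the other captured groups, so the shares in stele 2, stele 3 and the QC area are partly set by the filter. In stele 2 against the QC area, 1086 of the 1302 higher genes were higher (83.4%) and 38 lower (2.92%), where 25.3% of all tested genes were higher and 17.3% lower, together 42.5%. Their median log2 fold change was 3.18, against -0.02 over all tested genes. Of the 340 lower genes, 96 were higher (28.2%) and 75 lower (22.1%), with a median of 0.00. The genes higher in stele 1 were therefore higher in stele 2 far more often than all tested genes, while both shares of the genes lower in stele 1 lay within 5 percentage points of those of all genes. The balance for the lower genes depended on the libraries that called them: with the lists called without stele 1 replicate 3, 19.9% were higher and 28% lower, and with those called without replicate 1, 31.6% and 16.3%. With lane as a term, 35 of the lower genes were lower in place of 75, where 7.96% of all tested genes were lower.

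In stele 3 against the QC area, 1102 of the higher genes were higher (84.6%) and 48 lower (3.69%), where 28.4% of all tested genes were higher and 28.7% lower, together 57.1%. Their median log2 fold change was 3.54, against -0.14 over all tested genes. Of the lower genes, 112 were higher (32.9%) and 76 lower (22.4%), with a median of 0.37. Both comparisons share the QC area libraries. With the lists called without stele 1 replicate 3, 26.1% of the lower genes were higher and 29.8% lower, and with those called without replicate 1, 36.4% and 13.4%. With lane as a term, 49 of the lower genes were lower in place of 76, where 22.6% of all tested genes were lower.

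For the genes higher in stele 1, the shares were high at every size of difference between stele 1 and ground tissue. The filter and the spread were those of the fit that chose the lists, so the shares by size are not independent of it. Of the higher genes that differed by under 2-fold, 91.5% were higher in stele 2 than in the QC area; of those that differed by 2- to 8-fold, 78.7%; by 8- to 32-fold, 83.2%; and by over 32-fold, 91.5%. In stele 3 against the QC area the shares were 93.4%, 80.3%, 85.4% and 89.7%. For the genes lower in stele 1 they varied with the size: 64.7% of the 17 genes under 2-fold were higher in stele 2 than in the QC area, against 30.1%, 22.4% and 22.9% in the larger classes, and 52.9% were higher in stele 3, against 36.2%, 26.4% and 31.4%. With the lists called without stele 1 replicate 1, 83.6% and 84.4% of the higher genes were higher in stele 2 and in stele 3 than in the QC area, and with the lists called without stele 1 replicate 3, 85.8% and 86.9%. All stele 2 libraries were read in lane 7 and all QC area libraries in lane 8, so in this comparison lane and tissue cannot be told apart without the other groups. With lane as a term, estimated from the groups that span both lanes, 877 of the higher genes were higher in stele 2 and 1021 in stele 3 than in the QC area, and 16.9% and 24.1% of all tested genes. Scaling by total counts moved the median of all genes to -0.32 in stele 2 and -0.67 in stele 3 against the QC area, and the share of calls that are higher to 46.2% (59.4% with TMM) and 35.7% (49.7% with TMM). On that scale 1040 and 1025 of the genes higher in stele 1 were still higher in stele 2 and stele 3. The shares of all tested genes that were higher were 20.7% and 21.9%. Of the lower genes 98 and 108 were lower, where 24.2% and 39.4% of all tested genes were lower.

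**Figure D4:**
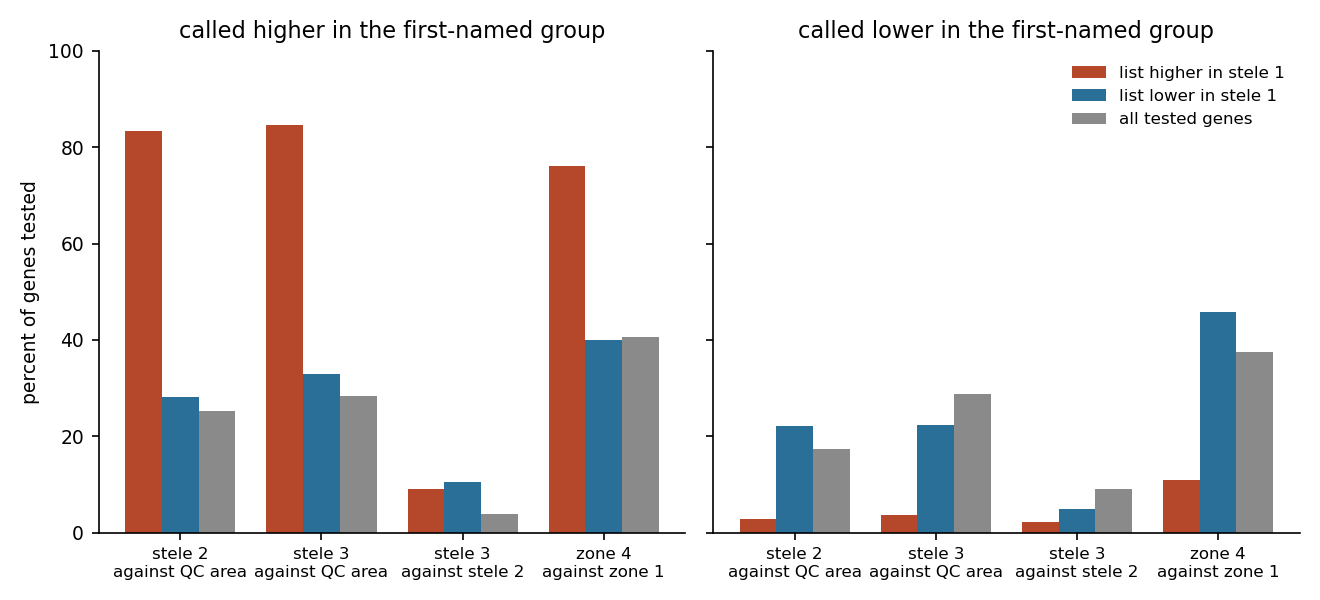
Bars give the percent of tested genes called higher (left) or lower (right) in the first-named group of 4 comparisons that use no stele 1 or ground tissue library, for genes higher in stele 1 (red), genes lower in stele 1 (blue) and all tested genes (grey). The red bars reach 83.4%, 84.6% and 76.0% against 25.3%, 28.4% and 40.6% of all genes, and the blue bars for the same comparisons reach 28.2%, 32.9% and 40.0%.

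The genes with the largest fitted rise in these follow-ups were nearly absent from the QC area, which a ranking by fitted rise favours. Genes were ranked here by their fitted change, which is no bound for a gene without counts in one of the groups. Of the genes higher in stele 1, MA_10429254g0020 had the largest fitted rise in stele 2. It had 46.8, 171, 209 and 561 CPM in stele 2 and no count in any QC area library, which makes it at least 3210-fold higher in stele 2 (3 counts over the group; adjusted p = 8.63e-05). In stele 1 it had 37, 16.3, 0 and 5.48 CPM, with no count in replicate 3, and it had none in ground tissue, at least 157-fold higher in stele 1 (adjusted p = 0.0112). Stele 1 and ground tissue libraries with a count were too few for the filter. The gene was tested only through the other captured groups, among them stele 2, so its rise there is no independent result. MA_239561g0010 had the largest fitted rise in stele 3. It had 2570, 1970, 2010 and 3560 CPM in stele 3, against 0.106, 0, 0 and 0.102 CPM in the QC area, where 2 counts were found in all (ratio 52500, 95% counting interval 14500 to 433000; adjusted p = 1.65e-08). It had 49.7, 32.7, 0.41 and 13.2 CPM in stele 1, against 1.41, 1.58, 0.998 and 0.358 CPM in ground tissue (log2 fold change 4.45 ± 0.81, SE; adjusted p = 0.00168), and 866, 828, 286 and 778 CPM in stele 2. Its ratio of stele 2 to the QC area was 14100 (95% counting interval 3910 to 117000), above the bound of MA_10429254g0020. In stele 1 replicate 3 it fell within the ground tissue range, while the other 3 stele 1 libraries lay above it.

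A small set of genes higher in stele 1 went the other way, and the 2 that lead it were highest in the QC area. MA_52821g0010 had 0, 0.25, 0 and 0 CPM in stele 2, with 3 counts in all, against 78, 36.4, 30.7 and 26.1 CPM in the QC area, a ratio of 543 in favour of the QC area (95% counting interval 185 to 2630; adjusted p = 3.18e-05). It had 10.9, 24.9, 40.3 and 16.1 CPM in stele 1, against 0.217, 0.297, 1.4 and 9.49 CPM in ground tissue (log2 fold change 2.99 ± 0.85, SE; adjusted p = 0.0459). That call was lost under most alternatives, among them without any one of stele 1 replicates 1 to 4 (adjusted p = 0.056 to 0.0965). MA_939354g0010 had no count in stele 3, against 119, 88.6, 58 and 48.9 CPM in the QC area, at least 553-fold lower in stele 3 (adjusted p = 5.22e-07). It had 42.7, 32.5, 30.3 and 15 CPM in stele 1, against 1.09, 4.75, 4.29 and 6.36 CPM in ground tissue, without overlap (log2 fold change 2.86 ± 0.62, SE; adjusted p = 0.00894). Among zone libraries both genes were found mainly in zone 1, with 1.36 to 2.22 CPM for MA_52821g0010 and 2.48 to 4.21 CPM for MA_939354g0010, and neither had a count in zones 3 and 4.

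Among the genes lower in stele 1, MA_10429882g0010 had the largest fitted rise in stele 2 and in stele 3 against the QC area. It had 31.4, 49.2, 18.5 and 28 CPM in stele 2 and 82, 158, 87.7 and 133 CPM in stele 3, against 0, 0, 0.266 and 0.102 CPM in the QC area (log2 fold changes 8.17 ± 0.56 and 10.03 ± 0.58, SE; adjusted p = 2.09e-08 and 9.9e-10). It had a single count in stele 1, against 1.52, 0.791, 1.1 and 1.34 CPM in ground tissue, so stele 1 was below and the later steles were far above ground tissue (ratio 36.0 in favour of ground tissue over stele 1, 95% counting interval 6.17 to 1450; adjusted p = 0.00115). At these low levels it passed the filter only with the later steles. MA_190475g0010 had the largest fitted fall in stele 2. It had 0, 0.417, 1.66 and 0 CPM in stele 2, against 46.1, 63.8, 89.9 and 136 CPM in the QC area (log2 fold change -7.21 ± 0.86, SE; adjusted p = 2.39e-06), and 6.82, 10.1, 15.8 and 5.24 CPM in stele 1, against 103, 135, 66.8 and 66.3 CPM in ground tissue (log2 fold change -3.28 ± 0.68, SE; adjusted p = 0.00458). MA_12952g0010 had the largest fitted fall in stele 3. It had no count in stele 3, against 6.98, 28.1, 33 and 94.2 CPM in the QC area, at least 286-fold lower in stele 3 (adjusted p = 4.66e-06), and 2.14, 4.1, 3.49 and 1.46 CPM in stele 1, against 24.8, 7.42, 30.5 and 49.3 CPM in ground tissue (adjusted p = 0.0105, and 0.0649 with lane as a term). The last 2 genes were thus high both in ground tissue and in the QC area and low in all 3 steles.

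Few of these genes passed the test between stele 3 and stele 2. Of the genes higher in stele 1, 117 were higher in stele 3 than in stele 2 (8.99%) and 28 lower (2.15%), where 3.85% of all tested genes were higher and 9.16% lower. Their median log2 fold change was 0.39, against -0.11 over all tested genes. Of the genes lower in stele 1, 36 were higher (10.6%) and 17 lower (5.0%), with a median of 0.45. The count of higher genes depended on single libraries: 48 of the genes higher in stele 1 were higher without stele 2 replicate 3, 61 without stele 2 replicate 1, 75, 61 and 65 without stele 3 replicate 1, 3 and 4. Of the genes lower in stele 1, 22 were higher without stele 2 replicate 3 or without stele 3 replicate 1, and 10 were lower without stele 3 replicate 2. Scaling by total counts moved the median of all genes to -0.34, the share of calls that are higher to 13.8% (29.6% with TMM) and the counts for the genes higher in stele 1 to 69 higher and 62 lower. On that scale 2.27% of all tested genes were higher and 14.1% lower.

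In this comparison MA_1175g0010 had the largest fitted rise among the genes higher in stele 1. It had 20.5, 26, 13.3 and 30.1 CPM in stele 3, against 2.3, 2.67, 0.881 and 2.9 CPM in stele 2 (log2 fold change 3.36 ± 0.87, SE; adjusted p = 0.0163, and 0.0502 without stele 2 replicate 3). In stele 1 it had 4.87, 0.683, 2.26 and 0.975 CPM, against 0, 0, 0 and 0.269 CPM in ground tissue, where 3 counts were found in all (ratio 26.6, 95% counting interval 8.69 to 133; adjusted p = 0.0215, and 0.0863 without stele 1 replicate 1 and 0.0668, 0.0756 and 0.0741 without ground tissue replicates 1, 2 and 3). At these low levels it passed the filter only through the other captured groups, among them stele 3. MA_320782g0010 had the largest fitted fall. It had 0, 0, 0 and 0.537 CPM in stele 3, with 3 counts in all, against 7.83, 5.59, 14 and 63 CPM in stele 2 (ratio 142 in favour of stele 2, 95% counting interval 48.5 to 691; adjusted p = 0.00736). It had 69.8, 11.6, 5.02 and 3.9 CPM in stele 1 and no count in ground tissue or the QC area, at least 233-fold higher in stele 1 than in ground tissue (adjusted p = 0.00279). It was thus found in steles 1 and 2, at a level that varied between their libraries, and among the other captured groups in stele 3 replicate 4 only.

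Among the genes lower in stele 1, MA_8933673g0010 had the largest fitted rise in stele 3. It had 38.2, 13, 40.6 and 32.1 CPM in stele 3, against 6.21, 2.25, 3.43 and 4.29 CPM in stele 2 (log2 fold change 2.94 ± 0.54, SE; adjusted p = 0.00188), and 0.195, 0.41, 0.103 and 0.609 CPM in stele 1, against 7.61, 1.78, 3.89 and 1.43 CPM in ground tissue (log2 fold change -3.41 ± 0.66, SE; adjusted p = 0.0026). MA_54876g0010 had the largest fitted fall. It had 7.51, 2.64, 11.1 and 2.86 CPM in stele 3, against 22.1, 15.5, 32.2 and 21.5 CPM in stele 2 (log2 fold change -1.92 ± 0.49, SE; adjusted p = 0.0144), and 6.82, 22.8, 44.8 and 34 CPM in stele 1, against 243, 182, 132 and 130 CPM in ground tissue (log2 fold change -2.66 ± 0.47, SE; adjusted p = 0.00134). Ground tissue held the highest level of MA_54876g0010 among the captured groups, and stele 3 held that of MA_8933673g0010.

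Over stele 2, stele 3 and the QC area, 894 of the 1302 genes higher in stele 1 had their highest mean in stele 3 (68.7%), 341 in stele 2 (26.2%) and 67 in the QC area (5.15%), against 33.7%, 21.5% and 44.8% of all tested genes. Of the 340 genes lower in stele 1, 155 were highest in stele 3 (45.6%), 62 in stele 2 (18.2%) and 123 in the QC area (36.2%). Part of both lists passed the filter only through these same groups, so the shares are partly set by it. The comparisons with ground tissue or stele 1 on one side share libraries with the one that chose the lists, so only their values are given. The genes higher in stele 1 had a median log2 fold change of 4.00 in stele 2, 4.38 in stele 3 and 0.48 in the QC area, each over ground tissue, and of 2.12 in stele 1 over the QC area. The genes lower in stele 1 had medians of -2.37 in stele 2, -1.76 in stele 3 and -2.16 in the QC area, each over ground tissue, and of -0.44 in stele 1 over the QC area.

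Along the root, the genes higher in stele 1 were higher in segments farther from the tip. The zone table chose neither list, and its segments hold all tissues of the root. In a fit of stele 1 and ground tissue alone, however, 991 of the 1302 higher genes could be tested. The others entered the list only through other captured groups, among them steles 2 and 3. The shares in the zones are thus not free of that filter, and its part was not tested. Of the 1302 higher genes 1176 could be tested in the zone libraries. In zone 4 against zone 1, 894 of them were higher (76.0%) and 128 lower (10.9%), where 40.6% of all 27767 tested genes were higher and 37.5% lower. Their median log2 fold change was 1.60, against 0.05 over all tested genes. Of the 340 lower genes 330 could be tested; 132 were higher (40.0%) and 151 lower (45.8%), with a median of -0.09. The lower genes' balance depended on the libraries that called them, with 44.7% higher and 39.7% lower for the list called without stele 1 replicate 4. With the lists called without stele 1 replicate 1, 75.5% of the genes higher in stele 1 were higher in zone 4, and with the lists called without stele 1 replicate 3, 74.4%.

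The change lay mainly in the first steps from the tip. The median log2 fold change of the genes higher in stele 1 was 1.24 in zone 2 over zone 1, 0.54 in zone 3 over zone 2 and -0.16 in zone 4 over zone 3, and that of the genes lower in stele 1 was 0.30, -0.27 and -0.12. Over all tested genes the medians were 0.02, -0.01 and 0.04. As a share of counts, the genes higher in stele 1 took 3.3% ± 0.128 in zone 1, 7.25% ± 0.59 in zone 2, 10.6% ± 0.344 in zone 3 and 9.35% ± 0.253 in zone 4 (SD, n = 5 each). The genes lower in stele 1 took 4.31% ± 0.336, 5.6% ± 0.183, 4.9% ± 0.152 and 4.46% ± 0.126 in zones 1 to 4. Libraries of zone 1 lay below those of all other zones for the genes higher in stele 1.

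Of the 1176 higher genes in the zone table, 1151 differed among the 4 zones (97.9%, against 88.4% of all tested genes). Of these, 68 were highest in zone 1 (5.91%), 165 in zone 2 (14.3%), 484 in zone 3 (42.1%) and 434 in zone 4 (37.7%), where the shares of all genes that differed were 37.2%, 10.5%, 18.2% and 34.0%. Of the lower genes 324 of 330 differed among zones, and their highest level fell on zone 1 (88 genes, 27.2%), zone 2 (84, 25.9%), zone 3 (67, 20.7%) and zone 4 (85, 26.2%). Zone 3 was thus the most frequent place of the highest level for genes higher in stele 1. Against the shares of all genes, zone 3 was the highest zone more often for the genes higher in stele 1, and zone 2 for the genes lower in it; these differences in share were not tested.

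**Figure D5:**
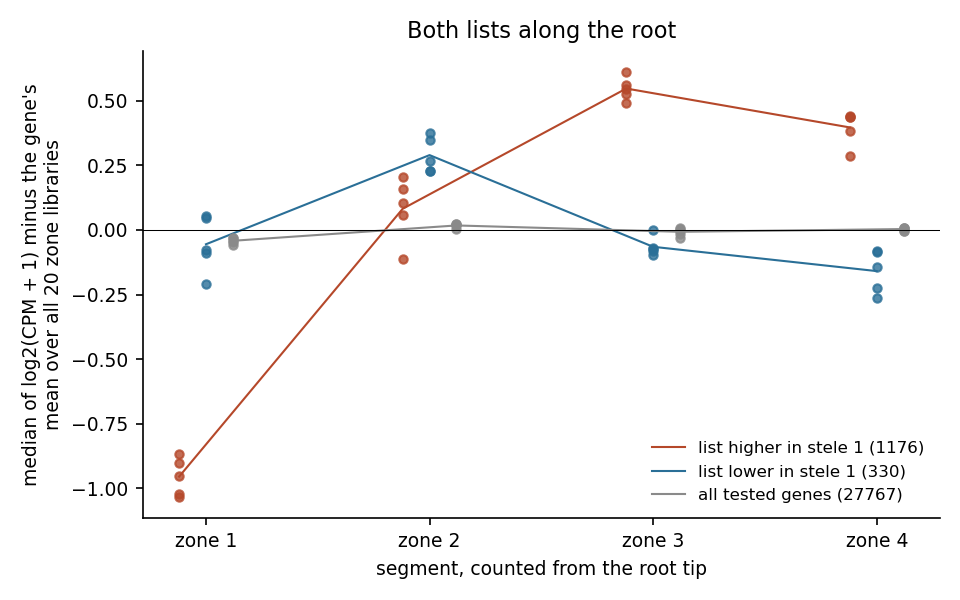
For each zone library (points), the median over genes of log2(CPM + 1) minus the mean of the gene over the 20 zone libraries, with lines through the zone means, for genes higher in stele 1 (red), lower in stele 1 (blue) and all tested genes (grey). Red points are lowest in zone 1 and highest in zone 3, and blue points are highest in zone 2.

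The genes with the largest changes between the zones were at or near 0 in one of them, which a ranking by fitted change favours. Of the genes higher in stele 1, MA_20223g0020 had the largest fitted rise, with 1390, 1360, 1760, 1330 and 1220 CPM in zone 4, against 0, 0.179, 0.695, 0.222 and 0 CPM in zone 1 (log2 fold change 12.47 ± 0.60, SE; adjusted p = 7.82e-15). Its place among the genes higher in stele 1 rests on 1 library: it had 26.5, 0.41, 0 and 0 CPM in stele 1, against 0, 0.0989, 0 and 0 CPM in ground tissue, where 1 count was found in all (ratio 185, 95% counting interval 32.7 to 7360; adjusted p = 0.0242), and without stele 1 replicate 1 the log2 fold change was 1.79 (adjusted p = 0.996). It averaged 134 ± 90.9 CPM in stele 2 and 442 ± 216 CPM in stele 3 (SD, n = 4 each) and had 1 count in the QC area. Only through steles 2 and 3 did it pass the filter of the captured libraries. MA_96764g0010 had the largest fitted fall. It had no count in zone 4, against 86.8, 99, 64.9, 73.6 and 80.2 CPM in zone 1, at least 703-fold lower in zone 4 (adjusted p = 1.41e-13). It had 34.9, 21.2, 18.7 and 9.75 CPM in stele 1, against 0.217, 0, 0.599 and 1.16 CPM in ground tissue (log2 fold change 5.34 ± 0.96, SE; adjusted p = 0.00217), 10.6 to 13.6 CPM in the QC area, and no count in stele 3.

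Of the genes lower in stele 1, MA_191627g0010 had the largest fitted rise along the root, with 268, 300, 306, 284 and 360 CPM in zone 4, against 0.615, 0.537, 1.04, 0.443 and 0.452 CPM in zone 1 (log2 fold change 8.85 ± 0.46, SE; adjusted p = 2.61e-14). It had 1.17, 0.82, 1.74 and 1.22 CPM in stele 1, against 6.85, 4.25, 4.09 and 4.39 CPM in ground tissue (log2 fold change -1.95 ± 0.38, SE; adjusted p = 0.00308), and averaged 10.8 CPM in stele 2 and 28.8 CPM in stele 3. MA_5017g0010 had the largest fitted fall. It had no count in zones 3 and 4, against 112, 125, 102, 101 and 108 CPM in zone 1, at least 951-fold lower in zone 4 than in zone 1 (adjusted p = 5.17e-13). It had no count in any of the 3 steles, against 0.435, 2.87, 2.99 and 1.25 CPM in ground tissue, at least 19.3-fold lower in stele 1 (adjusted p = 0.0335, 0.0555 to 0.0763 when 1 stele 1 library was left out, 0.082, 0.0817 and 0.0629 without ground tissue replicates 2, 3 and 4, and 0.0552 with lane as a term). Zone 1 held the highest level of MA_5017g0010, and the QC area held 0 to 2.14 CPM, close to ground tissue. The gene passed the filter of the captured libraries only with those of the QC area, so its level there is no independent result.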

How the data were processed

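Total RNA of 40 libraries was sequenced, 20 from captured regions and 20 from zones. The submitters' processing notes name the tools Trimmomatic, STAR and HTSeq. The genome, annotation, tool versions and strandedness of counting are not given in these sources. Reads of overlapping or antisense genes can then be mixed, and near-identical copies may split or lose reads. The authors deposited raw read counts per gene, in 1 table per kind of sample, with totals of 4.94 to 12 M (captured) and 3.53 to 7.25 M (zones). Stele columns were matched to samples by number, letter and elimination. The 2 tables were fitted separately with edgeR 4.0.16 (R 4.3.3; filterByExpr, TMM scaling, glmQLFit on all groups, Benjamini-Hochberg at 0.05), which tested 27239 captured and 27767 zone genes. The SE is the log2 fold change over the square root of F. CPM use TMM-scaled totals. Replicates differed by more than sampling noise, and none were merged. Counting intervals and bounds cover counting error only.

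Named genes are those with the largest difference in mean CPM between stele 1 and ground tissue (2 each way) and, in each follow-up, the largest log2 change each way per list, among called genes whose libraries do not overlap and, in follow-ups, that average at least 10 CPM. The comparison, lists and rules were chosen with earlier results of these data known. The edgeR steps were tested on simulated counts. Alternatives were DESeq2 1.42.0, other scalings, no filter, lane, a replicate block, single lanes, only the 2 groups, stricter lists (at least 2-fold, no overlap; 880 and 312 genes) and each replicate left out. Lists called without each stele 1 replicate were added after seeing the data.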

Additional observations from a re-analysis of the deposited data

Results flagged for a closer look

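Of 111 groups of 4 or 5 libraries examined, 14 held 1 library that stood far from the others. Chance alone gives about 1 in 20 for normally distributed values. That rate does not hold for genes near 0, where a lone library with a count is always flagged. Groups whose libraries were all equal, which cannot be flagged, are among the 111. In stele 1, replicate 1 was far above the others for MA_20223g0020 (26.5 CPM, others 0 to 0.41 CPM) and MA_320782g0010 (69.8 CPM, others 3.9 to 11.6 CPM), and replicate 4 was the only stele 1 library with a count for MA_10429882g0010 (0.122 CPM). In ground tissue, replicate 1 was highest for MA_10435304g0010 (2440 CPM, others 1150 to 1360 CPM), for MA_191627g0010 (6.85 CPM, others 4.09 to 4.39 CPM) and for the median of the genes higher in stele 1 (1.79 CPM, others 1.48 to 1.52 CPM). Replicate 4 of ground tissue was highest for MA_52821g0010 (9.49 CPM, others 0.217 to 1.4 CPM) and had the only ground tissue counts of MA_1175g0010 (0.269 CPM), and replicate 2 had the only one of MA_20223g0020 (0.0989 CPM).

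In other groups, MA_320782g0010 was highest in stele 2 replicate 4 (63.0 CPM, others 5.59 to 14 CPM) and found in stele 3 replicate 4 only (0.537 CPM), and MA_52821g0010 was found in stele 2 replicate 2 only (0.25 CPM). MA_191627g0010 was highest in zone 1 replicate 3 (1.04 CPM, others 0.443 to 0.615 CPM). The median of the genes higher in stele 1 was lowest in zone 4 replicate 4 (19.8 CPM, others 21.2 to 21.5 CPM).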

How the results depend on the processing

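No single-gene log2 fold change and neither library measure changed sign under the alternatives run. The balance of the lower genes did: with the list called without stele 1 replicate 3 more were lower than higher in stele 2 and in stele 3 against the QC area, and with that called without replicate 4 more were higher than lower in zone 4. Of the single-gene results, 490 kept their side of the threshold and 52 lost it. Depth limits genes with few counts, for which only bounds or counting intervals are given. With 1 replicate left out, genes higher in stele 1 numbered 808 to 1720 and lower 211 to 411. Of the genes higher in stele 1, 28 to 36 were then lower in stele 2 than in the QC area and 48 to 134 higher in stele 3 than in stele 2; of the lower genes, 22 to 45 were higher and 10 to 16 lower there. The labels do not say that replicate numbers pair the samples, and the data leave it undecided: same-numbered libraries of stele 1 and ground tissue deviated with r = 0.02 to 0.19, and 2 of 4 correlated best with their own number. With a replicate block, 1190 genes were higher and 335 lower in stele 1. DESeq2 gave 1594 higher and 564 lower, and of the 2 lists 203 and 60 higher in stele 3 than in stele 2. Only the 2 groups gave 840 higher and 485 lower. Total counts gave, of the genes higher in stele 1, 73 lower in stele 3 than in the QC area and 69 higher and 62 lower in stele 3 than in stele 2. With lane as a term, 35 and 49 of the lower genes were lower in stele 2 and stele 3 than in the QC area. The shares of all tested genes were 7.96% and 22.6%. Lane 7 gave 599 higher, and lane 8 280 higher and 170 lower. Of the stricter list of higher genes, 683 and 698 were higher in stele 2 and stele 3 than in the QC area, 74 in stele 3 than in stele 2 and 586 in zone 4. Of lists called without stele 1 replicate 1, 675 and 681 of the higher genes were higher and 21 and 24 lower in stele 2 and stele 3 than in the QC area, 34 and 28 of the lower genes lower, 77 and 8 of the 2 lists higher and lower in stele 3 than in stele 2, and in zone 4 560 higher and 83 lower of the higher genes and 85 higher and 87 lower of the lower ones. For lists called without stele 1 replicate 2, 24 and 30 of the higher genes were lower in stele 2 and stele 3 than in the QC area, 62 and 71 of the lower genes higher and 36 and 32 lower, 9 lower in stele 3 than in stele 2, and 83 higher and 86 lower in zone 4. Without replicate 4, 37 and 35 of the lower genes were lower in stele 2 and stele 3 than in the QC area and 94 in zone 4. Without stele 1 replicate 3, 113 and 120 of the lower genes were lower in stele 2 and stele 3 than in the QC area. The causes were not tested.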

Other observations

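Of the genes higher in stele 1, 126 did not pass the filter of the zone table. They had a median of 53 counts over its 20 libraries, and 17 of them had none. Of the genes lower in stele 1, 10 did not pass it, and none of these lacked zone counts. The tables differ in tissue, extraction and scaling, and the part of each in these counts was not tested.

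Some gene IDs share the part before the letter g, here called the stem. Of all tested genes 2656 of 27239 (9.75%) share it with another tested gene. Of the genes higher in stele 1, 71 share it with another of the list, on 35 stems, and of the genes lower in stele 1, 14 do, on 7 stems. Sharing within a list is a narrower measure than sharing with any tested gene. No stem held a gene of each list. Of 148 genes higher in stele 1 that have a tested gene of the same stem, 71 have one that was also higher, and of 26 genes lower in stele 1, 14 have one that was also lower. Over all tested genes, 4.78% were higher and 1.25% lower in stele 1. What a shared stem stands for is not given in the sources used here.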
